A study of Oryza sativa Japonica Group with 49 samples.

Results

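The 10 genes described here encode NAC transcription factors of rice that have been linked to abiotic stress: SNAC1 (LOC_Os03g60080), OsNAC6 (LOC_Os01g66120), OsNAC5 (LOC_Os11g08210), OsNAC10 (LOC_Os11g03300), OsNAC3 (LOC_Os07g12340), OsNAC4 (LOC_Os01g60020), SNAC3 (LOC_Os01g09550), ONAC022 (LOC_Os03g04070), OsNAP (LOC_Os03g21060) and ONAC131 (LOC_Os12g03040). They were taken by name from the 55986 gene models of the MSU rice annotation that both count tables list, and all 10 passed the filter on low counts in every comparison. Their MSU identifiers place them on chromosomes 1, 3, 7, 11 and 12.

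NAC proteins are a plant-specific family with a conserved N-terminal domain that binds DNA and a variable C-terminal part that activates transcription. Many members are induced by dehydration, salt or abscisic acid (ABA), the hormone of water deficit, and act on genes of stomatal closure, dehydration protection and root growth. Others act in leaf senescence, in cell death or in the response to pathogens.

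The tables held RNA-seq libraries of japonica rice in 11 groups. Seedlings of the variety ZH11 were grown under normal, drought or heat conditions and seedlings of the variety DJ under normal or drought conditions, with 3 libraries a group. Panicles of ZH11 were taken under normal or heat conditions, with 2 libraries a group. Another set of libraries, 3 a group, came from the T-DNA insertion line onac023 (in DJ) and from DJ-WT, its wild-type control from heterozygous plants of that line, each under drought or heat. The mutated gene, ONAC023, is another NAC gene. Per the labels, drought was 7 days without water, to a relative soil water content under 10%, and heat was 6 hours at an air temperature of 45 °C. The labels give the heat treatment for seedlings and no separate one for panicles, and the study's methods give other durations for seedlings. Each library of the lines is a pool of seedlings, the mutant is 1 insertion line, and no unstressed library of the lines was analysed here.

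The total count per library ranged from 39789339 to 132110274. The most frequent low value was 4 counts in ZH11 panicles and in ZH11 seedlings under normal or heat conditions and 2 counts in all other libraries. From this, a read pair seems to have been worth more than 1 count, and not the same in all libraries. That difference cannot be told apart from drought in ZH11 or from variety. As many members were called in these comparisons with counts taken as read pairs. This could not test the difference, because scaling by library size largely removes a constant divisor. The summed level of 4 heat genes was 10630 to 83940 normalized CPM in heated libraries, except for replicate 1 of the ZH11 heat seedlings at 4645, and 33.7 to 61.5 under normal conditions. The summed level of 11 ABA and dehydration genes was 8486 to 43930 in droughted libraries and 57.1 to 336.1 under normal conditions. The 8 floral genes summed to 1563 to 1982 in panicles and to 7.01 to 46.0 in seedlings. In bulk tissue, fewer cells of a type and less RNA per cell cannot be told apart.

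Levels are given below as normalized CPM, each count divided by its library size after TMM scaling of all 31 libraries, and are compared within a gene only. Fold changes are log2 values ± SE from edgeR, in which each comparison was scaled and fitted on its own. A gene was called at a Benjamini-Hochberg adjusted p under 0.05 over all genes and a fold change over 2.

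**Figure D1:**
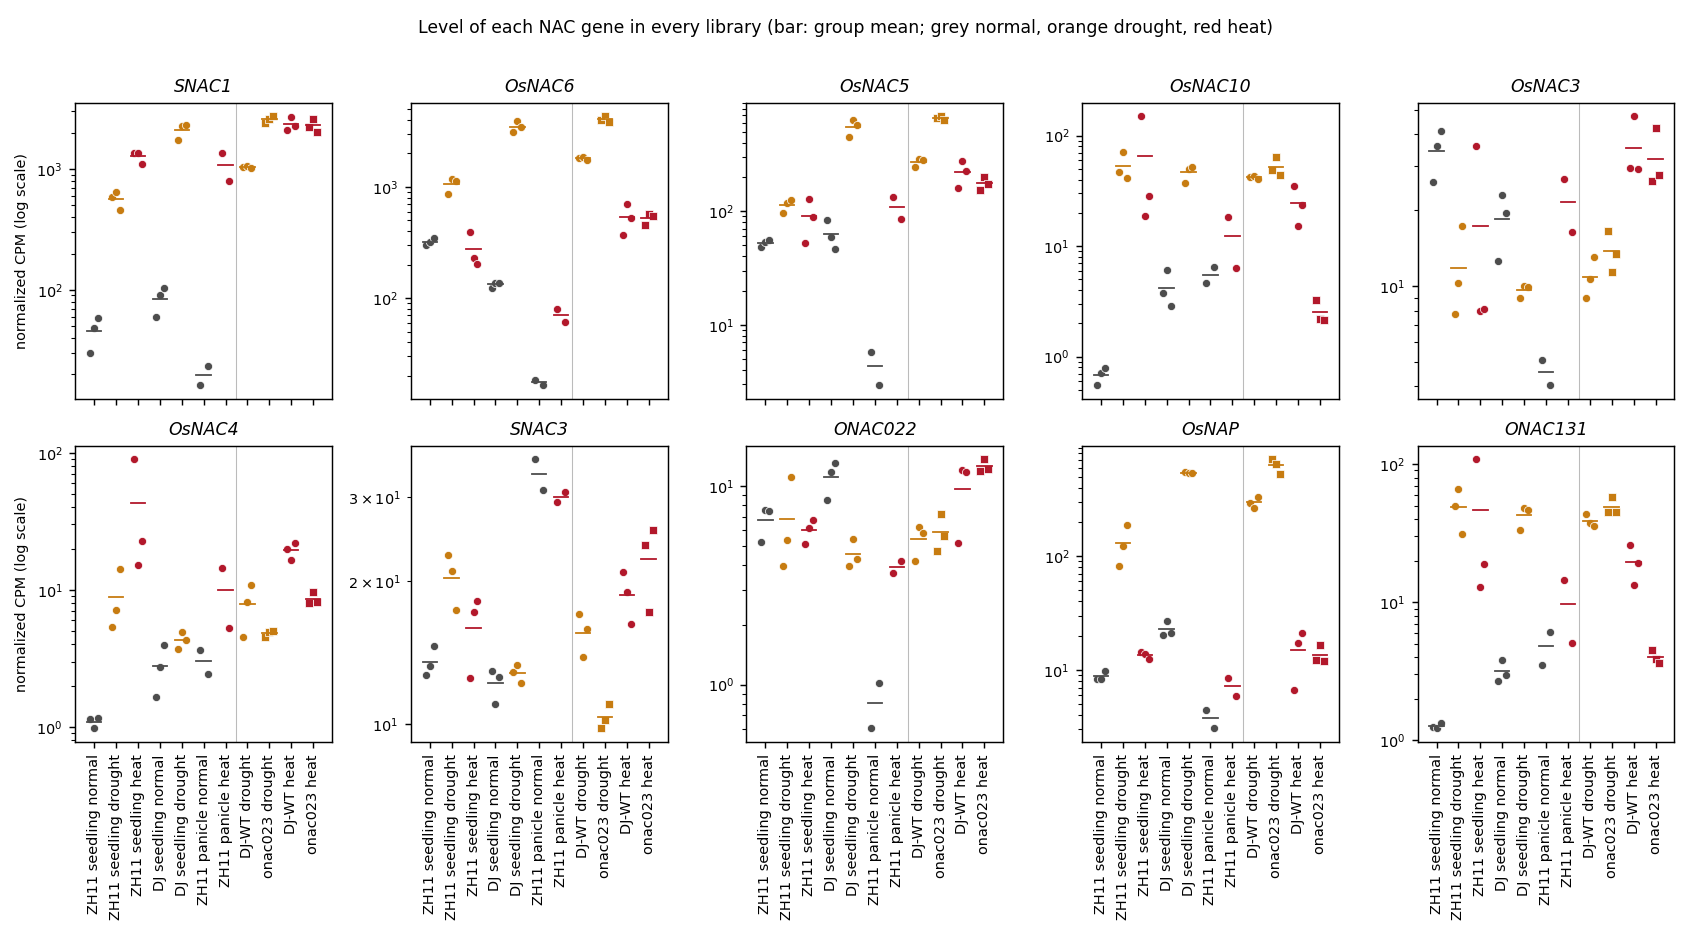
Level of each NAC gene in every library, in normalized CPM on a log scale, by group (points: libraries, squares: onac023, bars: group means). SNAC1 lay between 16.3 and 102.9 in unstressed libraries and between 454.6 and 2742 in stressed ones, whereas SNAC3 stayed within 9.80 to 36.1 in all libraries.

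Of the 10 genes, 9 were called higher in at least 1 of 4 responses to stress. The share of all genes with such a call was not computed, so this count cannot be set against it. In ZH11 seedlings under drought, 7 of the 10 were called higher (26.2% of all genes tested) and 1 lower (16.9% of all genes). In DJ seedlings under drought, 6 were higher (25.2% of all genes) and 1 lower (29.1%). In ZH11 seedlings under heat, 4 were higher (31.4% of all genes) and 0 lower (24.5%), a count close to the share over all genes. In heated ZH11 panicles, 5 were higher (8.57% of all genes) and 0 lower (1.69%). The members' median log2 fold change was 2.35 and 3.44 under drought in ZH11 and DJ, 0.71 in heated seedlings and 1.93 in heated panicles, beside a median over all genes of 0.07, -0.14, 0.09 and 0. SNAC1 was the one member called higher in all 4 responses and SNAC3 the one called in none.

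**Figure D2:**
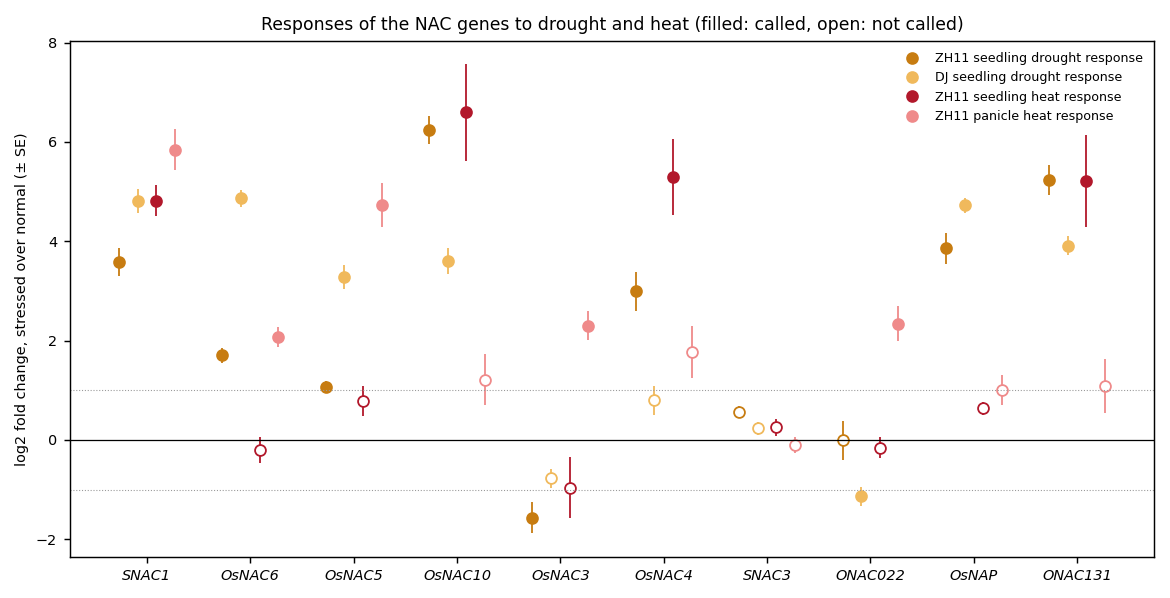
Log2 fold change of each gene, stressed over normal, with its SE, in 4 responses (filled: called, open: not called, dotted lines: fold change of 2). The values ran from -1.56 for OsNAC3 under drought in ZH11 to 6.60 for OsNAC10 in heated ZH11 seedlings.

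SNAC1 is known for closing stomata under drought and for drought resistance when overexpressed. In ZH11 seedlings it stood at 30.1, 48.5 and 58.7 normalized CPM under normal conditions, at 642.1, 454.6 and 584.1 under drought and at 1348, 1366 and 1108 under heat. In DJ seedlings it stood at 59.8, 90.4 and 102.9 under normal conditions and at 1746, 2270 and 2335 under drought. Every stressed library of seedlings lay above every unstressed one. The panicles held 16.3 and 23.3 under normal conditions and 1367 and 799.6 under heat, again without overlap. SNAC1 rose by a log2 fold change of 3.59 ± 0.28 under drought in ZH11 (adjusted p = 5.75e-05), 4.81 ± 0.25 under drought in DJ (2.37e-07), 4.82 ± 0.31 in heated seedlings (3.44e-05) and 5.84 ± 0.41 in heated panicles (0.00552). It was 2.29-fold higher in heated than in droughted ZH11 seedlings (adjusted p = 0.01).

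OsNAC6, also named SNAC2, acts in tolerance to drought, salt and cold. In ZH11 seedlings its level was 297.9, 318.3 and 345.2 under normal conditions and 1180, 1140 and 870.1 under drought, a rise of 1.70 ± 0.15 on the log2 scale (adjusted p = 0.000107). In DJ seedlings it went from 123.6, 137.8 and 137.6 to 3111, 3883 and 3456, a rise of 4.87 ± 0.17 (3.57e-08). The DJ libraries thus lay below the ZH11 ones under normal conditions and above them under drought. Heat gave 394.7, 228.3 and 204.2 in ZH11 seedlings, a range that overlapped the normal one (-0.20 ± 0.27, adjusted p = 0.513). In panicles it rose from 18.6 and 16.5 to 80.4 and 61.1 under heat (2.08 ± 0.20, adjusted p = 0.00805).

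OsNAC5, a close relative of OsNAC6 that is also induced by ABA and salt, moved less in ZH11 seedlings than in DJ seedlings or in panicles. Its level in ZH11 was 48.3, 54.0 and 56.2 under normal conditions and 118.4, 124.2 and 97.1 under drought, a rise of 1.07 ± 0.12 (adjusted p = 0.000251). It was just under the fold threshold without normal replicate 1 or drought replicate 2 (0.996 and 0.998). In DJ it rose from 84.1, 58.7 and 46.4 to 447.4, 632.2 and 569.1 (3.28 ± 0.24, adjusted p = 2e-06). In panicles it rose from 5.71 and 2.94 to 133.9 and 85.0 under heat (4.73 ± 0.44, adjusted p = 0.00751). In heated seedlings it stood at 52.9, 127.9 and 89.7, which overlapped the normal libraries (0.79 ± 0.30, adjusted p = 0.0521). Replicate 1, the lowest of the 3, was the library with the low heat genes.

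The reported targets of these factors followed different courses. OsSRO1c, a SNAC1 target in guard cells, rose by 5.88 ± 0.36 and 8.09 ± 0.28 on the log2 scale under drought in ZH11 and DJ, by 6.81 ± 0.53 in heated seedlings and by 6.54 ± 0.45 in heated panicles. OsLEA3, which encodes a protective late embryogenesis abundant protein and is a reported target of OsNAC5, rose by 12.35 ± 0.40 and 13.77 ± 0.53 under drought in ZH11 and DJ. It rose by 6.74 ± 0.68 in heated seedlings and by 5.27 ± 0.36 in heated panicles, all called. Of the 7 reported targets, 3 were called higher under drought in ZH11 (26.2% of all genes) and 7 in DJ (25.2%), with none lower (16.9% and 29.1%). In heated seedlings 2 were higher (31.4% of all genes) and 2, NYC1 and NYC3 of chlorophyll breakdown, lower (24.5%), counts close to the shares over all genes. In heated panicles 2 were higher (8.57% of all genes).

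OsNAP links ABA to leaf senescence and activates genes of chlorophyll breakdown. Its level in ZH11 seedlings was 8.27, 8.36 and 9.73 under normal conditions, 122.0, 186.1 and 81.1 under drought and 14.2, 13.7 and 12.6 under heat. In DJ seedlings it went from 20.3, 27.1 and 21.1 to 551.2, 533.0 and 542.7 under drought. Within a variety no stressed library overlapped a normal one, but the step under heat was small. OsNAP rose by 3.86 ± 0.31 under drought in ZH11 (adjusted p = 6.67e-05) and by 4.73 ± 0.15 in DJ (2.56e-08). Under heat its log2 fold change was 0.63 ± 0.13 in seedlings (adjusted p = 0.00479, under the fold threshold) and 1.00 ± 0.30 in panicles (0.091), where it stood at 4.46 and 3.08 under normal conditions and 8.53 and 5.90 under heat. It was 9.54-fold lower in heated than in droughted ZH11 seedlings (adjusted p = 0.00101). SGR, the stay-green gene that OsNAP activates in chlorophyll breakdown, rose by 3.21 ± 0.34 under drought in ZH11 and by 3.73 ± 0.18 in DJ. It was 2.84 ± 0.41 lower on the log2 scale under heat than under drought in ZH11. SGR was chosen after its values were seen, and does not stand for all targets. Only 3 of the 7 reported targets were called higher under drought in ZH11, against 7 in DJ. The 4 leaf genes, for Rubisco small subunits and chlorophyll-binding proteins, all fell under drought in both varieties, with a median log2 fold change of -2.77 in ZH11 and -5.56 in DJ, and the part of lost photosynthetic RNA in the OsNAP result was not tested.

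OsNAC10 and ONAC131 lie in duplicated segments of chromosomes 11 and 12 and are close copies, between which the authors' counting could have split or shared reads, so their separate values are uncertain. OsNAC10 is known for drought tolerance when expressed in roots, and ONAC131 for resistance to blast fungus. In ZH11 seedlings OsNAC10 was low under normal conditions, at 0.55, 0.71 and 0.79 normalized CPM, and stood at 70.3, 41.3 and 46.8 under drought. ONAC131 went from 1.24, 1.23 and 1.34 to 65.7, 31.1 and 49.4. Both rose in all 3 droughted libraries, by 6.24 ± 0.28 (adjusted p = 9.45e-06) and 5.24 ± 0.30 (1.86e-05) on the log2 scale. In DJ seedlings OsNAC10 rose from 3.76, 6.03 and 2.85 to 37.2, 49.6 and 52.4 (3.61 ± 0.26, adjusted p = 1.89e-06), and ONAC131 from 2.67, 3.82 and 2.96 to 33.4, 48.5 and 46.3 (3.91 ± 0.19, 1.64e-07). The droughted levels of the varieties overlapped, and the DJ libraries were the higher ones under normal conditions.

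**Figure D3:**
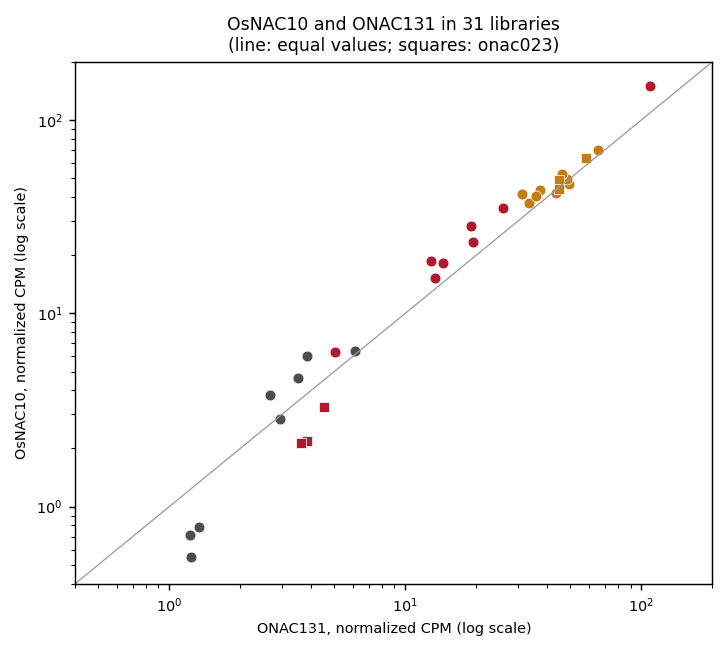
OsNAC10 against ONAC131 in the 31 libraries, in normalized CPM on log axes (grey: normal, orange: drought, red: heat, squares: onac023, line: equal values). The genes moved together, with r = 0.983 over the libraries.

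OsNAC4, a promoter of cell death in the response to pathogens, was also among the genes with the largest rise in heated seedlings. In ZH11 its level was 1.14, 0.98 and 1.16 under normal conditions, 7.12, 14.1 and 5.32 under drought and 90.1, 15.3 and 22.8 under heat. It rose by 2.99 ± 0.39 under drought (adjusted p = 0.00055) and by 5.30 ± 0.77 under heat (0.000921). In DJ seedlings it went from 1.64, 2.72 and 3.96 to 3.69, 4.97 and 4.31 under drought, overlapping ranges with a log2 fold change of 0.79 ± 0.30 (adjusted p = 0.035) that did not reach the fold threshold. Without DJ normal replicate 3 it was 1.13 and called (adjusted p = 0.00513).

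The heated ZH11 seedlings were not alike for these genes. OsNAC10 stood at 150.0, 18.6 and 28.5, ONAC131 at 108.9, 12.8 and 19.0, and OsNAC4 at 90.1, 15.3 and 22.8 in replicates 1, 2 and 3. OsNAC3 (36.1, 7.95 and 8.12) and OsNAC6 (394.7, 228.3 and 204.2) were highest in the same library, and OsNAC5 was lowest there. Replicate 1 was also the heated library with the lowest summed heat genes, 4645 against 38380 and 22350, and the highest summed ABA and dehydration genes, 5077 against 3406 and 2167. It held 124 counts of ONAC023 where the other heated replicates held 0 and 4. What set replicate 1 apart was not tested. Without it, 5 members were called higher (31.5% of all genes) and 1 lower (25.7%). The rises of OsNAC10, ONAC131 and OsNAC4 were then 5.10 ± 0.25, 3.65 ± 0.21 and 4.12 ± 0.22 in place of 6.60 ± 0.97, 5.22 ± 0.92 and 5.30 ± 0.77, with adjusted p of 6.75e-06, 1.16e-05 and 8.67e-06. OsNAC5 was called higher without it (1.04 ± 0.16, adjusted p = 0.00098) and OsNAC3 lower (fell by 2.09 ± 0.21 on the log2 scale, adjusted p = 0.000133).

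**Figure D4:**
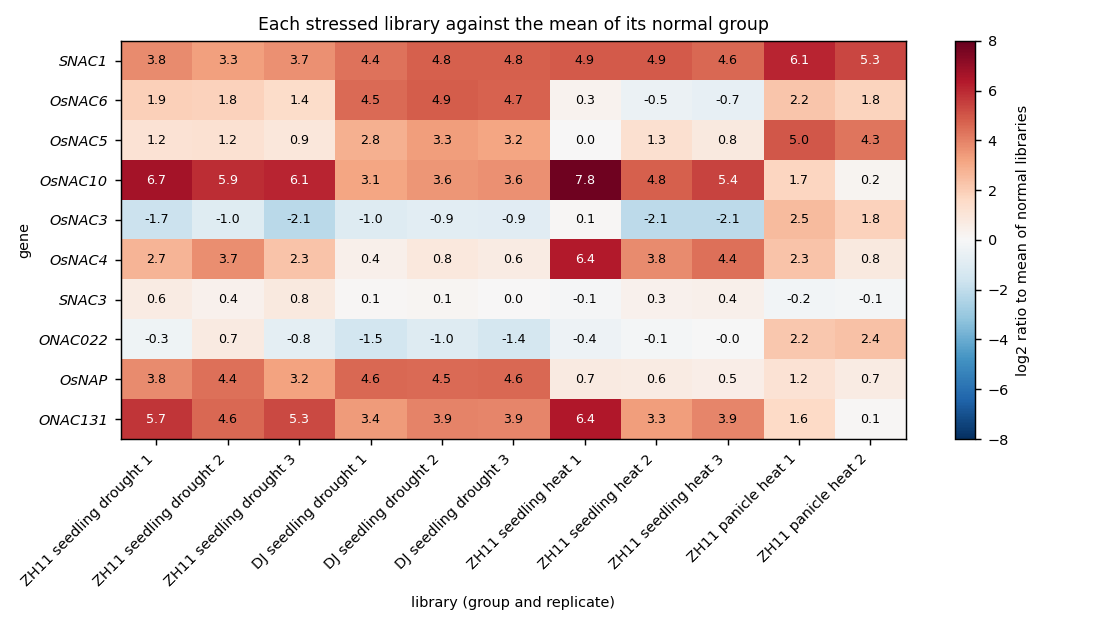
Log2 ratio of each stressed library to the mean of its normal group, for each gene (red: above, blue: below). Replicate 1 of the heated ZH11 seedlings holds 7.78 for OsNAC10 where the other replicates hold 4.76 and 5.38, while SNAC1 lies between 4.6 and 4.9 in all 3.

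OsNAC3, ONAC022 and SNAC3 were not called higher in droughted seedlings of either variety. OsNAC3, which is induced by ABA and salt, stood at 25.8, 35.9 and 41.2 in ZH11 seedlings under normal conditions and at 10.2, 17.3 and 7.76 under drought. It fell by 1.56 ± 0.32 on the log2 scale (adjusted p = 0.00424). In DJ it went from 12.6, 23.0 and 19.5 to 8.996, 10.03 and 9.88 (-0.77 ± 0.20, adjusted p = 0.00555, under the fold threshold). Heated panicles moved the other way, from 5.08 and 4.05 to 26.7 and 16.3 (2.30 ± 0.30, adjusted p = 0.0137).

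ONAC022, known for drought and salt tolerance when overexpressed, stood at 5.21, 7.62 and 7.48 in ZH11 seedlings under normal conditions, at 5.33, 11.2 and 3.96 under drought and at 5.14, 6.15 and 6.73 under heat. All 3 ranges overlapped, with log2 fold changes of -0.01 ± 0.39 (adjusted p = 0.984) and -0.16 ± 0.21 (0.517). In DJ it fell from 8.56, 11.8 and 13.1 to 3.95, 5.40 and 4.29 under drought, by 1.14 ± 0.20 on the log2 scale (adjusted p = 0.000541). In panicles it rose from 0.60 and 1.02 to 3.64 and 4.19 under heat (2.34 ± 0.36, adjusted p = 0.0205). Without heated panicle replicate 1, which leaves 1 heated library, the log2 fold change was 2.45.

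SNAC3, which confers tolerance to heat and drought when overexpressed, had the flattest course. In ZH11 seedlings it stood at 12.7, 13.3 and 14.6 under normal conditions, at 21.0, 17.4 and 22.7 under drought and at 12.5, 17.2 and 18.1 under heat. The droughted libraries lay above the normal ones (0.56 ± 0.13, adjusted p = 0.00645), by less than the fold threshold. The other log2 fold changes were 0.23 ± 0.12 under drought in DJ, 0.25 ± 0.17 in heated seedlings and -0.10 ± 0.16 in heated panicles (adjusted p = 0.112, 0.217 and 0.706). Their approximate upper 95% limits were 0.58 or less, which is too low for so few libraries.

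In heated panicles, where each group held 2 libraries, OsNAC10, ONAC131 and OsNAC4 were not called and had wide intervals. OsNAC10 stood at 4.61 and 6.40 under normal conditions and 18.1 and 6.30 under heat, and ONAC131 at 3.52 and 6.11 and at 14.4 and 5.06. OsNAC4 stood at 3.63 and 2.42 and at 14.5 and 5.29. Heated replicate 1 was the higher one for each of the 3, and it also held the higher summed heat genes, 25480 against 10630. Their log2 fold changes were 1.21 ± 0.51, 1.08 ± 0.54 and 1.77 ± 0.52 (adjusted p = 0.174, 0.235 and 0.0877). Without heated replicate 2, which leaves 1 heated library, the values of OsNAC10 and OsNAC4 were 1.79 and 2.33.

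Heat and drought can be set against each other directly in ZH11 seedlings. SNAC1 and OsNAC4 were called higher under heat (18.1% of all genes were) and OsNAC6 and OsNAP lower (18.1% as well). Both counts were close to the share over all genes. OsNAC6 was 3.83-fold lower under heat (adjusted p = 0.00459). The OsNAC4 difference of 2.28 ± 0.73 on the log2 scale (adjusted p = 0.0394) was no longer called without heat replicate 1 (1.14, adjusted p = 0.0694), without heat replicate 3 (2.58, 0.0512) or without drought replicate 1 (2.14, 0.118) or 3 (2.01, 0.117). OsNAC10 and ONAC131 differed by 0.32 ± 0.75 and -0.05 ± 0.79 between the stresses. Without heat replicate 1 both were called lower under heat, by -1.14 (adjusted p = 0.0236) and -1.58 (0.0136).

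The genes also differed between tissues before any stress. Under normal conditions 4 members were called higher in ZH11 panicles than in seedlings (33.8% of all genes) and 6 lower (24.3%). OsNAC6 was 17.9-fold lower in panicles (adjusted p = 1.26e-06), OsNAC5 12-fold (6.02e-05), ONAC022 8.2-fold (0.00018) and OsNAC3 7.37-fold (5.99e-05). SNAC1 and OsNAP were 2.27-fold and 2.29-fold lower (0.0104 and 0.00167). OsNAC10 was 8.17-fold higher in panicles (6.27e-05), ONAC131 3.86-fold (0.000677), OsNAC4 2.81-fold (0.00211) and SNAC3 2.54-fold (4.04e-05). SNAC3 stood at 36.1 and 31.2 in panicles and had its highest group mean there, 33.6 ± 3.51 (SD, n = 2). The SNAC1 and OsNAP differences fell under the fold threshold when 1 library was left out (SNAC1 at -0.96 without panicle replicate 1 and -0.97 without seedling replicate 3, OsNAP at -0.94 without panicle replicate 2). The OsNAC4 call was lost with all libraries of the table in 1 fit (1.43 ± 0.64, adjusted p = 0.0616).

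The responses to heat were set against each other by an interaction term. The labels give no separate heat treatment for panicles, so the heat may have differed between the tissues. In heated seedlings the log2 fold changes of OsNAC3, OsNAC6 and ONAC022 were negative and not called (-0.96, -0.20 and -0.16). The stressed-over-normal ratio in panicles was 14.8-fold that in seedlings for OsNAC5 (adjusted p = 0.000476), 9.3-fold for OsNAC3 (0.0149), 5.44-fold for ONAC022 (0.00101) and 4.69-fold for OsNAC6 (0.00144). That made 4 members with a larger response in panicles (18.8% of all genes). OsNAC10, ONAC131 and OsNAC4 had a smaller one (23.4% of all genes), by log2 differences of -5.43 ± 1.23, -4.19 ± 1.22 and -3.57 ± 1.03 (adjusted p = 0.00562, 0.019 and 0.0178). Without seedling heat replicate 1 these were -3.97 ± 0.62, -2.65 ± 0.62 and -2.43 ± 0.59, all still called. The difference for SNAC1 was 0.98 ± 0.47 (adjusted p = 0.116). Leaving out 1 panicle library leaves 1 in its group, so only the log2 differences are given. OsNAC3 stood at 2.82 without heat replicate 1 and 3.07 without normal replicate 2. OsNAC4 stood at -3.02 without heat replicate 2 and -3.25 without normal replicate 1. ONAC131 stood at -3.62 without heat replicate 2 and -3.74 without normal replicate 2.

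DJ and ZH11 seedlings differed for 5 members under normal conditions, 4 higher in DJ (24.6% of all genes) and 1 lower (13.9%). OsNAC10 was higher in DJ by 2.58 on the log2 scale (adjusted p = 0.000113), OsNAP by 1.33 (3.03e-05), OsNAC4 by 1.302 (0.00598) and ONAC131 by 1.27 (0.000436), and OsNAC6 was 2.48-fold lower (4.72e-06). Leaving out 1 library ended the call for OsNAC4 (0.94 without DJ replicate 3) and added SNAC1 (1.06 without ZH11 replicate 3, 1.03 without DJ replicate 1) or OsNAC3 (-1.10 without ZH11 replicate 1, -1.12 without DJ replicate 2).

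The drought response was larger in DJ for OsNAC6 (9.1-fold, adjusted p = 3.19e-07), OsNAC5 (4.68-fold, 3.72e-05) and SNAC1 (2.37-fold, 0.00909), 3 members against 20.2% of all genes. It was smaller for OsNAC10 (-2.60 ± 0.39, 0.000117), OsNAC4 (-2.18 ± 0.52, 0.00311) and ONAC131 (-1.30 ± 0.34, 0.0053), 3 members against 28.2% of all genes. The count of smaller responses was close to the share over all genes, and that of larger ones was little above it. The ONAC131 call was lost with all libraries of the table in 1 fit (-1.47 ± 0.87, adjusted p = 0.176). With upper quartile scaling the median over all genes moved from -0.14 to -0.44, 30.3% of all calls were higher in place of 41.8%, and the SNAC1 difference was 0.93 and not called. ONAC022, at -1.11 ± 0.47 (adjusted p = 0.0575), was called lower in DJ without DJ normal replicate 1 (-1.27), ZH11 drought replicate 1 (-1.27) or ZH11 drought replicate 3 (-1.40). It was also called by DESeq2 (-1.10, adjusted p = 0.0386), with upper quartile scaling (-1.42, 0.0197), with no filter (-1.295, 0.0245), with the replicate block (-1.05, 0.0367) and with all libraries of the table in 1 fit (-1.29, 0.0305), but not with RLE scaling, glmTreat or counts as read pairs. OsNAP, at 0.89 ± 0.34, was called without DJ normal replicate 2 (1.02), and without ZH11 drought replicate 2 both OsNAP (1.25) and OsNAC3 (1.20) were. The summed ABA and dehydration genes were also higher in droughted DJ libraries, 27540 to 40560 against 8486 to 16360 in ZH11, and the part of a stronger drought in these differences was not tested.

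Before the lines are compared, their libraries were checked. ONAC023 had 257, 222 and 65 counts in droughted and 105, 126 and 180 in heated DJ-WT libraries, against 6, 4 and 9 and 0, 2 and 0 in onac023. A list of 36 genes was on in every ZH11 seedling library (1 CPM or more) and off in every DJ seedling library (0.1 CPM or less), and 54 genes showed the reverse. The droughted DJ-WT libraries held all 36 of the former at 0.5 CPM or more and all 54 of the latter, and the heated ones held 34 or 35 and 42. The onac023 libraries held 17 to 23 of the 36. DJ seedlings held 0 of them by the rule that made the list. The libraries labelled DJ-WT, and in part those of onac023, thus carried transcripts that the DJ seedlings did not. What this contributes to the line differences was not tested, and the drought comparison is given also with the droughted DJ seedlings in place of DJ-WT.

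Under drought, 4 members were called lower in DJ-WT than in onac023 (7.21% of all genes) and 0 higher (18.1%). SNAC1 stood at 1037, 1056 and 1028 in DJ-WT and at 2416, 2582 and 2742 in onac023. OsNAC6 stood at 1817, 1869 and 1749 against 3984, 4341 and 3868, and OsNAC5 at 245.6, 287.5 and 284.8 against 658.6, 687.8 and 641.1. OsNAP stood at 292.2, 264.2 and 332.1 against 712.8, 647.8 and 527.6. These 4 genes were 2.37-fold, 2.15-fold, 2.32-fold and 2.03-fold lower in DJ-WT (adjusted p = 2.46e-05, 3.96e-05, 2.89e-05 and 0.000277). OsNAP was under the fold threshold without DJ-WT replicate 2 (-0.95) or onac023 replicate 1 (-0.94). SNAC3 and OsNAC4 were 1.58-fold and 1.7-fold higher in DJ-WT (adjusted p = 0.00134 and 0.0477), under the fold threshold, and OsNAC4 was called without DJ-WT replicate 1 (1.04, adjusted p = 0.000674).

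The same libraries differed in their stress markers. Of the 11 ABA and dehydration genes 9 were called lower in DJ-WT, with a summed level of 16580 to 19120 against 38570 to 43930 in onac023, all 4 heat genes were lower and 3 of the 4 leaf genes higher. The 4 members and these markers moved together, and the part of a milder drought in DJ-WT was not tested. With droughted DJ seedlings in place of DJ-WT, 0 members were called higher (0.357% of all genes) and 0 lower (0.923%) by edgeR, with 2 at an unadjusted p under 0.05, and 0 by DESeq2, with 3. SNAC1, OsNAC6, OsNAC5 and OsNAP were then -0.26 ± 0.13, -0.19 ± 0.12, -0.24 ± 0.12 and -0.18 ± 0.12 on the log2 scale (adjusted p = 0.316, 0.416, 0.324 and 0.429), and OsNAC4 was at -0.13, in the other direction. The DJ seedlings and onac023 came from separate count tables.

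Under heat, OsNAC10, ONAC131 and OsNAC4 were called. OsNAC10 stood at 35.2, 15.3 and 23.4 in DJ-WT and at 3.26, 2.18 and 2.13 in onac023, and ONAC131 at 25.9, 13.4 and 19.4 against 4.54, 3.85 and 3.62. OsNAC4 stood at 19.8, 16.6 and 22.01 against 8.05, 9.60 and 8.15. These 3 members were called higher in DJ-WT (9.04% of all genes), by 3.29 ± 0.36, 2.28 ± 0.28 and 1.17 ± 0.19 on the log2 scale (adjusted p = 0.00185, 0.00266 and 0.00644), and 0 were lower (2.24%). SNAC1 was nearly level, at 2090, 2705 and 2284 in DJ-WT and 2241, 2614 and 2028 in onac023. Its log2 difference was 0.03, with an approximate 95% interval from -0.38 to 0.43 that is too narrow for so few libraries. The same kind of interval ran from -0.46 to 0.45 for OsNAC6 and from -0.59 to 0.86 for OsNAP. Of the 4 heat genes 3 were called lower in DJ-WT, with a summed level of 32240 to 43950 against 60370 to 83940, and OsSalT and RAB16A of the ABA and dehydration genes were higher, by 4.27 ± 0.56 and 3.36 ± 0.67 (adjusted p = 0.00314 and 0.0134). The part of unequal heat stress in the line differences was not tested. The data held no heated DJ seedlings to take the place of DJ-WT. OsNAC10, ONAC131 and OsNAC4 were also the members with the widest spread among the heated ZH11 seedlings, 8.08-fold, 8.47-fold and 5.91-fold between the highest and the lowest library.

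**Figure D5:**
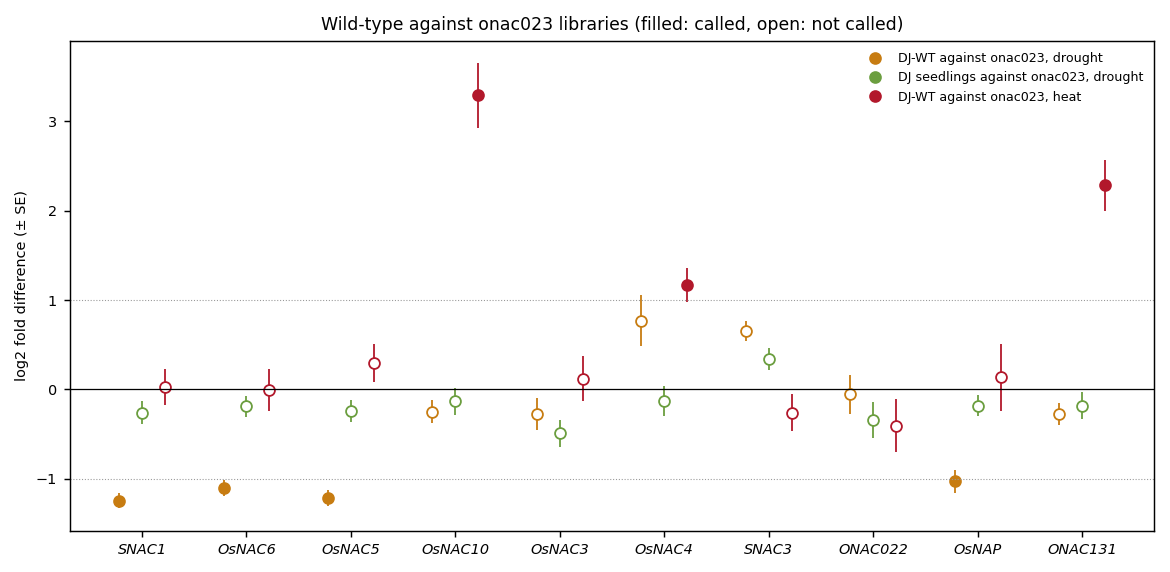
Log2 fold difference of wild-type over onac023 libraries with its SE, under drought, under drought with DJ seedlings in place of DJ-WT, and under heat (filled: called, open: not called, dotted lines: fold of 2). OsNAC10 under heat is the largest difference, at 3.29, and no gene is called with the DJ seedlings.

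The difference between the lines depended on the stress for 5 members, all lower in DJ-WT under drought relative to heat (8.91% of all genes) and none higher (14.7%). The log2 interaction was -3.48 ± 0.41 for OsNAC10 (adjusted p = 0.000114), -2.50 ± 0.32 for ONAC131 (0.000189), -1.45 ± 0.24 for OsNAC5 (0.000787), -1.21 ± 0.20 for SNAC1 (0.001) and -1.04 ± 0.26 for OsNAC6 (0.0105). The OsNAC6 value passed under the fold threshold without DJ-WT heat replicate 2 (-0.81), onac023 drought replicate 2 (-0.99) or onac023 heat replicate 1 (-0.95). With RLE scaling the median over all genes moved from 0.08 to -0.08, 51.4% of calls were higher in place of 62.3%, and OsNAP was called as well (-1.26, adjusted p = 0.0388). Without DJ-WT heat replicate 1, OsNAP (-1.43) and SNAC3 (1.10) were called, and SNAC3 was also without onac023 drought replicate 3 (1.03) or onac023 heat replicate 2 (1.14). With droughted DJ seedlings in place of DJ-WT, the drought differences of SNAC1, OsNAC6 and OsNAC5 were -0.26, -0.19 and -0.24. Those of OsNAC10 and ONAC131 were -0.13 and -0.18, and none of them was called. The interaction was not fitted with that exchange, and the part of a milder drought in DJ-WT was not tested.

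Across the 11 groups, whose levels are set side by side over both count tables, the genes fell into different orders. SNAC1 had its highest mean in droughted onac023, 2580 ± 163.5 (SD, n = 3), followed by heated DJ-WT, heated onac023 and droughted DJ seedlings, 4 groups of which each overlapped the next. OsNAC6, OsNAC5 and OsNAP had the same 3 leading groups, droughted onac023, DJ seedlings and DJ-WT, and their lowest mean, like that of SNAC1, OsNAC3 and ONAC022, in unstressed panicles. The lowest mean of OsNAC10, ONAC131 and OsNAC4 was in unstressed ZH11 seedlings, and that of SNAC3 in droughted onac023 seedlings, 10.3 ± 0.62 (SD, n = 3). The ranges of SNAC3 overlapped from one group to the next over 7 steps of its order, and those of OsNAC3 over 9.

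Over the 31 libraries, which share varieties, stresses and count tables, so that the values are a description, OsNAC10 was most like ONAC131 (Pearson r of log2 CPM = 0.983) and OsNAC6 most like OsNAP (0.885) and OsNAC5 (0.885). SNAC1 was most like OsNAC5 (0.826), OsNAC4 most like SNAC1 (0.65), and OsNAC3 and ONAC022 most like each other (0.667). SNAC3 had no close match, with a highest r of 0.176, to OsNAC4, and a lowest of -0.62, to OsNAC6. The ratio of OsNAC10 to ONAC131 counts was 0.445 to 0.589 in unstressed ZH11 seedlings, 0.565 to 0.719 in heated onac023 and 0.947 to 1.58 in all other groups.

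Of 14 other NAC genes, chosen among wood-type, microRNA164-targeted and membrane-tethered members, 13 were tested in seedlings. Under drought 8 were called higher (26.2% of all genes) and 3 lower (16.9%) in ZH11. In DJ 7 were higher (25.2%) and 2 lower (29.1%). Their median log2 fold change was 1.35 in ZH11 and 1.41 in DJ, beside 0.07 and -0.14 over all genes. The largest rises in ZH11 were those of OsSWN1 and OsSWN2, regulators of secondary cell walls, by 3.16 ± 0.25 and 2.72 ± 0.31, and in DJ those of OMTN1 (3.25 ± 0.12) and OsNTL5 (2.33 ± 0.10). OMTN6 and OsSWN3 fell most in ZH11, by 5.12 ± 0.35 and 4.59 ± 0.30 on the log2 scale. In heated seedlings 5 were higher (31.4% of all genes) and 5 lower (24.5%). In heated panicles, with 14 tested, 1 was higher (8.57%), OsNTL3 (1.92 ± 0.29), and 2 lower (1.69%). The count of higher genes in panicles was close to the share over all genes.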

How the data were processed

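RNA-seq was analysed in 31 libraries, and the ChIP-seq samples were not analysed here. The labels name HISAT2, StringTie and DESeq2, and the study's methods name fastp, STAR and StringTie with the MSU annotation. The authors deposited 2 tables of estimated counts, written as whole numbers and not normalized to library size. In them a read pair seems to be worth more than 1 count, as inferred from the most frequent low values. All columns were used (0 left out). The library kit marks strand, but whether counting used strand is not given in the sources used here, so that reads of a gene and an antisense partner cannot be told apart.

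All genes that passed filterByExpr were tested by the quasi-likelihood method of edgeR 4.0.16, run in R 4.3.3 after TMM scaling. A fit held the 2 groups of a comparison, or 4 groups for a difference between 2 responses. A call needed an adjusted p under 0.05 and a fold over 2, as in the study. The SE is the size of the log2 fold change over the square root of F. Intervals are approximate 95% intervals from it by the normal distribution, which makes them too narrow for so few libraries. The test was tried on simulated data. The alternatives were DESeq2 1.42.0, RLE and upper quartile scaling, no filter, glmTreat, a block for replicate number, 1 fit over all libraries of a table, counts as read pairs, DJ seedlings in place of DJ-WT, and each library left out.

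All 10 genes are named. Of other lists at most the 2 called genes with the largest change in each direction are named, and SGR was chosen after its values were seen. Members and lists were chosen with earlier results of these data known. The study's methods describe repeats of the treatments for the lines, and the labels do not say that the other libraries came from separate plants or cultures, so p-values measure the spread between these libraries, which may be technical. Total counts were 39789339 to 132110274, and 3 counts correspond to 0.02 to 0.0933 normalized CPM, a limit that covers counting error only. Same-numbered libraries were not taken as pairs.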

Additional observations from a re-analysis of the deposited data

Results flagged for a closer look

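A difference between 2 responses passed its test, by an interaction term in edgeR, for 18 pairs of gene and comparison, given here as log2 values with SE. Each stood out only because that test passed, and no cause was tested. The drought response of DJ minus that of ZH11 was 1.24 ± 0.36 for SNAC1, 3.19 ± 0.21 for OsNAC6, 2.23 ± 0.29 for OsNAC5, -2.6 ± 0.39 for OsNAC10, -2.18 ± 0.52 for OsNAC4 and -1.3 ± 0.34 for ONAC131.

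The heat response of ZH11 panicles minus that of ZH11 seedlings was 2.23 ± 0.39 for OsNAC6, 3.89 ± 0.56 for OsNAC5, 3.22 ± 0.89 for OsNAC3 and 2.44 ± 0.4 for ONAC022. It was -5.43 ± 1.23 for OsNAC10, -3.57 ± 1.03 for OsNAC4 and -4.19 ± 1.22 for ONAC131.

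The difference of DJ-WT and onac023 under drought minus that under heat was -1.21 ± 0.2 for SNAC1, -1.04 ± 0.26 for OsNAC6, -1.45 ± 0.24 for OsNAC5, -3.48 ± 0.41 for OsNAC10 and -2.5 ± 0.32 for ONAC131. These values were not refitted with droughted DJ seedlings in place of DJ-WT, an exchange after which no member was called under drought.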

How the results depend on the processing

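Of the members' log2 fold changes under settings that left no library out, 935 kept their call or lack of one, 34 lost a call, 11 gained one and 0 reversed, that is, changed sign with a call in either fit. Among the 935, values called in neither fit changed sign 9 times, to a size of 0.269 at most. The number of members called was within 1.5 times of the value given in the report, except in these cases. With glmTreat, which tests against a fold of 2, it was 2 in place of 4 for heat against drought in ZH11, 3 in place of 5 for DJ against ZH11 under normal conditions, 2 in place of 4 for DJ-WT against onac023 under drought, and 2 in place of 5 for drought against heat in the lines. With all libraries of the table in 1 fit it was 3 in place of 5 for DJ against ZH11, where OsNAC4 (1.32) and ONAC131 (1.29) were lost. With DJ seedlings in place of DJ-WT it was 0 by edgeR and 0 by DESeq2, the latter chosen after seeing the data.

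With each library left out in turn, 1 value with a call in either fit changed sign, and values called in neither did so 21 times, to a size of 0.519 at most. The former was OsNAC10 in heat against drought, at -1.14 without ZH11 seedling heat replicate 1, against 0.32 with all libraries and 0.775 at most. The number of members called ranged from 7 to 8 for drought in ZH11, 4 to 6 for heat in ZH11 seedlings and 7 to 8 for drought in DJ. It ranged from 3 to 5 for heat against drought, 4 to 6 for DJ against ZH11, and 3 to 5 and 3 to 3 for the lines under drought and heat. For the drought responses of the varieties it was 6 to 8, and for drought against heat in the lines 4 to 7. No such range is given for comparisons with panicles, where a removal can leave 1 library in a group.

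Over all genes, the calls in heated panicles were 2793, against 4451 with DESeq2 and 1146 with glmTreat. They were 9269 and 4828 with glmTreat for heat against drought, and 6086 and 2199 for drought against heat in the lines. For the lines under drought they were 6148, against 2735 with glmTreat, 294 with DJ seedlings in place of DJ-WT and 373 in the same exchange by DESeq2. For the lines under heat they were 2647, against 702 with glmTreat and 1469, 1581 and 1630 without DJ-WT replicate 3, onac023 replicate 1 and onac023 replicate 3. With upper quartile scaling the median over all genes moved from -0.14 to -0.36 for drought in DJ and from 0.07 to 0.18 for DJ against ZH11, with the same members called, and OsNAP fell to -0.995, under the fold threshold, in the lines under drought.

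With the replicate number as a block, OsNAC4 (1.64) and OsNAP (1.00) were called in heated panicles, OsNAC4 was not in heat against drought (1.98), SNAC1 was not in panicle against seedling (-0.95), and ONAC022 was in the drought responses of the varieties (-1.05). The block changed no other call. DESeq2 also called OsNAC4 (1.79) and OsNAP (1.01) in heated panicles. Same-numbered libraries correlated by -0.039 to 0.219, and no comparison of 3 pairs had all pairs over 0.1. All 6 libraries correlated best with their own number for drought in DJ and for the lines under heat. Groups of 2 or 3 libraries limit what could be seen of small differences.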
